A study of Mus musculus with 24 samples.

Results

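The tumour suppressor p53 (Trp53), 7 genes that it is known to switch on (Cdkn1a, Mdm2, Bax, Bbc3, Ccng1, Trp53inp1 and Sesn2), the stress cytokine gene Gdf15 and the cell cycle inhibitor locus Cdkn2a were described across mouse cartilage explants under hydrostatic pressure. These 10 genes were chosen by symbol from the 52178 genes of the count table. All 10 were found, and 9 were tested with 21283 genes in all, Cdkn2a being too low in counts. Hip caps, which are mostly articular cartilage avulsed from the femoral head, were taken from male mice of the C57/BL6 strain (C57/BL6J in the methods of the study) at 4 weeks of age, with 2 caps of a single mouse pooled per sample. Metatarsals, which carry growth plate cartilage, came from E15 embryos of the same strain, whose sex is not given, with 6 bones pooled per sample. Both explants were cultured for 24 h, held for 1 h at 0 MPa (control), 5 MPa (a pressure the study calls physiological) or 50 MPa (injurious), and cultured for a further 24 h. No group carried a transgene or received a drug. There were 4 libraries in each of the 6 groups of tissue and pressure, and the study set aside 2 hip cap libraries, HC4 (control) and H502 (50 MPa), as outliers, so that 3 hip cap controls and 3 hip caps at 50 MPa entered the fit of 22 libraries.

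As background, p53 is a transcription factor that is held at low levels in unstressed cells because MDM2, the product of one of its own targets, marks it for degradation. After DNA damage and some other stresses the protein is stabilised and switches on genes that stop the cell cycle (Cdkn1a), that start death through mitochondria (Bax, Bbc3) or that temper metabolism and oxidative stress (Sesn2, Trp53inp1). Because much of this control acts on the protein, the Trp53 transcript need not follow p53 activity. Several of these genes also answer to other factors, among them ATF4, which drives Sesn2 and Gdf15 when protein synthesis or folding is disturbed.

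Library totals ranged from 4185241 to 25104240 counts. Levels are given as CPM, counts relative to the size of the library, after TMM normalization, which scales each library so that most genes do not differ, and the TMM factors lay between 0.427 and 1.12 in the hip caps used and between 1.08 and 1.54 in metatarsals. In the controls all 10 cartilage markers were higher in hip caps than in metatarsals (summed 49170 to 77830 CPM against 1882 to 5006 CPM), and all 10 skeletal muscle markers were lower (summed 8.97 to 16.2 CPM, with Myog at 0, against 1135 to 2720 CPM), so that the metatarsals held muscle RNA beside cartilage RNA. The hip cap controls also held more osteoclast marker RNA (summed 329 to 532 CPM against 37.5 to 67.2 CPM, with 3 of 7 genes called), and their neutrophil markers summed to 8.70 to 48.8 CPM against 1.53 to 4.17 CPM (0 of 6 called in edgeR, 0 at an unadjusted p under 0.05, 1 higher with DESeq2). Osteoclast markers were called higher in 7 of 7 genes at 5 MPa and in 6 of 7 at 50 MPa. Neutrophil markers were called higher in 6 of 6 genes at 5 MPa and in 0 of 6 at 50 MPa. Macrophage markers were called higher in 3 of 7 and 1 of 7, and osteoblast markers in 6 of 7 and 5 of 7 (1 lower at 50 MPa). Of all genes, 18.8% were called higher at 5 MPa and 10.1% at 50 MPa. In bulk RNA, fewer cells of a type and less RNA per cell cannot be told apart. The tissues also differed in age, medium and sex composition, which cannot be told apart from the tissue itself. Hip caps came from males, and the study lists Xist, a transcript of female cells, among the genes most reduced in hip caps. The part of cell composition in the differences below was not tested. The 3 hip cap controls were all from the first sequencing run and the 4 hip caps at 5 MPa all from the second, while the 3 hip caps at 50 MPa were all unstranded libraries of the first run. HC3 was the single unstranded control, MC1 and M504 were the only metatarsals of the first run, and M504 was the only unstranded metatarsal library, so that the terms for run and library type in the fit rested largely on these 3 libraries.

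**Figure D1:**
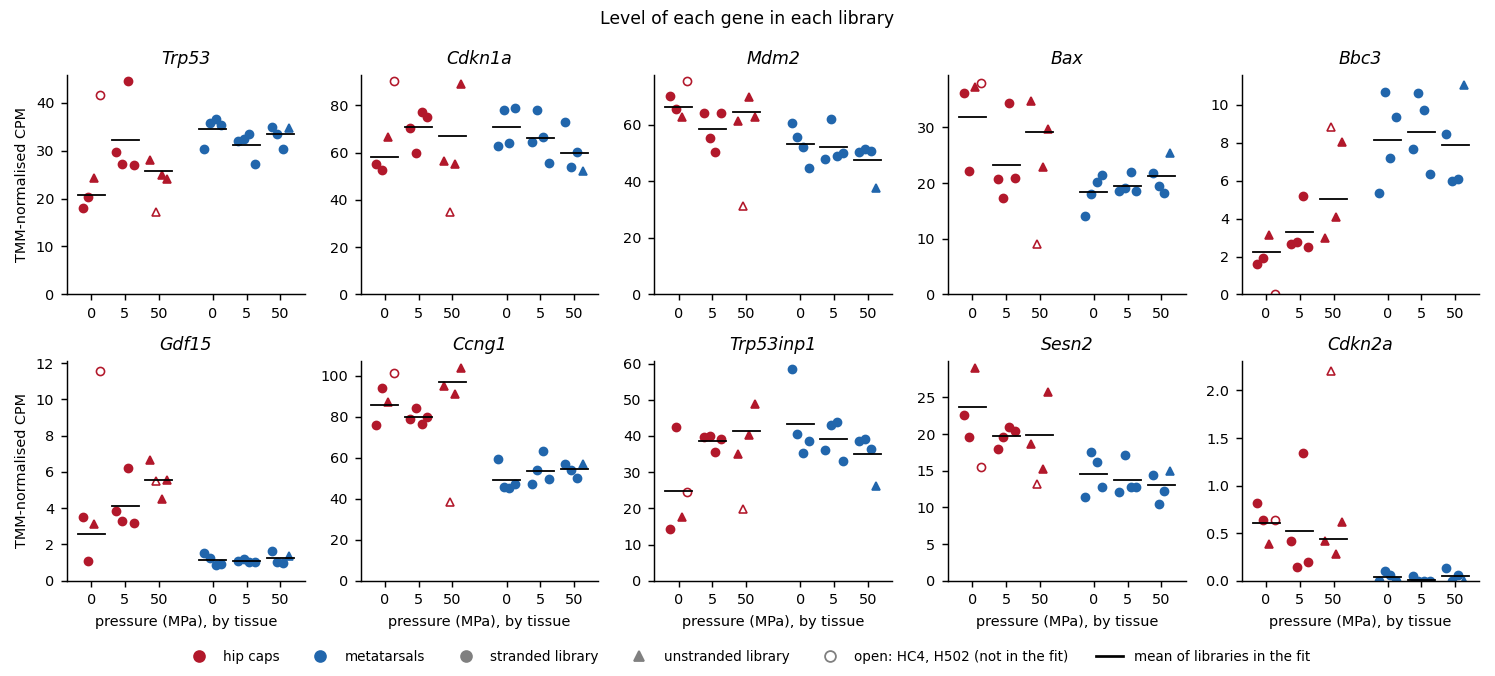
TMM-normalised CPM of each of the 10 genes (panels, linear axes from 0) in every library, by pressure in MPa (hip caps in red on the left, metatarsals in blue on the right; circles stranded, triangles unstranded; open symbols HC4 and H502, which were not fitted; black lines means of the fitted libraries). Gdf15 and Ccng1 lay higher in the fitted hip caps than in metatarsals at 5 and 50 MPa, Bbc3 lay lower in hip caps at 0 and 5 MPa, and the 3 fitted hip cap controls of Trp53inp1 spread from 14.4 to 42.5 CPM.

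To set the genes against each other, CPM was divided by the median length of each gene's coding transcripts. On this scale Cdkn1a, which encodes the CDK inhibitor p21, was the highest of the 10 in every group other than hip cap controls, at 38.9 to 46.0 CPM per kb on average. In hip cap controls Bax, the pore-forming effector of mitochondrial death, averaged 39.7 ± 10.5 CPM per kb (SD, n = 3) and Cdkn1a 37.7 ± 4.70, and their libraries overlapped. In all 6 groups Gdf15 and Cdkn2a were the lowest, in that order. Bbc3, which encodes the BH3-only killer PUMA, ranked 8th in hip cap controls (4.59 ± 1.66 CPM per kb, n = 3) and 5th in metatarsal controls (16.8 ± 4.85, n = 4). Its ranks rest on the shortest length of the 10, 485 bases over 3 coding models, and whether these models are complete was not tested. Before division by length, Bbc3 averaged 8.15 CPM in metatarsal controls, against 34.4 for Trp53, 53.4 for Mdm2 and 49.4 for Ccng1. In metatarsal controls Trp53, Mdm2, Bbc3 and Ccng1 followed Bax between 19.2 and 14.1 CPM per kb, and each overlapped its neighbour in this order.

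The listed promoters of the genes other than Trp53inp1 were searched for the 10-base p53 half-site consensus, which reads the same on both strands, in the 250 bases before each annotated start (RefSeq, GRCm38.p6, as the count table names genes but gives no positions). Of 32851 mouse promoters of the same length 7.13% held a half-site and 0.0639% held 2 half-sites lying 0 to 13 bases apart. A half-site lay in the listed promoters of Trp53, Mdm2, Bax and Ccng1. Of the 2 listed promoters of Cdkn1a, 1 held 2 half-sites within that distance of each other, starting 73 and 51 bases before its start. The other, of a start further downstream, held 0. No match was found in those of Bbc3, Gdf15, Sesn2 and Cdkn2a, and a match is a description of letters only. The windows are shown because they are where the letters known to be read by p53 occur beside these genes, with the half-site in capitals, 5′ to 3′ along the gene's strand.
Trp53, chr11:69580274-69580303, + strand: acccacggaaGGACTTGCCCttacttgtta
Cdkn1a, chr17:29090896-29090925, + strand: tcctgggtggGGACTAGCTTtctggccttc
Cdkn1a, chr17:29090918-29090947, + strand: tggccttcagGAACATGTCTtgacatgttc
Mdm2, chr10:117710925-117710954, - strand: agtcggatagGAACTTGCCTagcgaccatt
Bax, chr7:45467080-45467109, - strand: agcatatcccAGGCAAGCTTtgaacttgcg
Ccng1, chr11:40755452-40755481, - strand: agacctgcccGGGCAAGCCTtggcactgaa

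The first comparison asked how the genes differ between articular and growth plate explants that were not pressurised. Bbc3, Trp53inp1 and Trp53 were lower in hip caps, and Bax, Sesn2 and Ccng1 were higher, each relative to most other genes. Thus 6 of the 9 genes tested passed an adjusted p-value of 0.05 in edgeR's quasi-likelihood test, where 29.9% of all 21283 genes did. The 3 higher and the 3 lower genes stand beside 14.1% and 15.9% of all genes. The median log2 fold change was 0.37 over the 9 genes and -0.082 over all genes. The libraries of the 2 tissues did not overlap for 6 of the 9 genes, against 42.4% of all genes.

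Trp53 itself was measured at 17.9, 20.4 and 24.2 CPM in hip cap controls and at 30.2, 35.7, 36.5 and 35.3 CPM in metatarsal controls. The groups did not overlap, and Trp53 was 1.57-fold lower in hip caps (log2 fold change -0.65, SE 0.20, adjusted p = 0.0159). Of its 31-base words 10.2% are shared with other genes, 8.79% with the pseudogene Trp53-ps, so that a part of its count is uncertain. Mdm2, whose product degrades p53, was at 70.4, 65.7 and 63.0 CPM in hip caps and at 60.9, 55.9, 52.1 and 44.6 CPM in metatarsals, which do not overlap, but its difference of 0.37 (95% interval 0.023 to 0.72, adjusted p = 0.101) did not pass and was -0.56 with library sizes alone.

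Among the death effectors, Bbc3 was at 1.63, 1.91 and 3.14 CPM in hip cap controls (6, 12 and 33 counts). In metatarsal controls it was at 5.36, 10.7, 7.20 and 9.34 CPM, all above the hip caps, a 3.68-fold lower level in hip caps (log2 fold change -1.88, SE 0.44, adjusted p = 0.00293). Bax was at 36.1, 22.1 and 37.2 CPM in hip cap controls against 14.2, 18.0, 20.2 and 21.4 CPM in metatarsal controls, with no overlap. It was 1.77-fold higher in hip caps (log2 fold change 0.83, SE 0.28, adjusted p = 0.0305), a direction that turned with library sizes alone. An overlapping gene model on the same strand, Gm45808, holds 9.89% of the 31-base words of Bax, and reads of the 2 cannot be told apart there. Thus Bbc3 and Bax, both known to promote death, differed in opposite directions between the tissues.

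Among the arrest genes, Cdkn1a was at 55.2, 52.8 and 66.4 CPM in hip cap controls and at 63.0 to 78.9 CPM in metatarsal controls, which overlap, with a difference of -0.10 (95% interval -0.54 to 0.33, adjusted p = 0.756). An antisense gene model, AC167363.2, holds 6.88% of the 31-base words of Cdkn1a. Ccng1, which encodes cyclin G1, a target that acts with the phosphatase PP2A on MDM2, was at 75.8, 93.9 and 87.4 CPM in hip caps and at 59.3, 45.6, 45.2 and 47.3 CPM in metatarsals. No libraries overlapped, and Ccng1 was 1.55-fold higher in hip caps (log2 fold change 0.64, SE 0.15, adjusted p = 0.00324), other than with library sizes alone, which gave a negative value.

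Among the stress genes, Sesn2, whose product restrains mTORC1, was at 22.6, 19.6 and 29.1 CPM in hip cap controls and at 11.48, 17.6, 16.1 and 12.7 CPM in metatarsal controls. It was 1.71-fold higher in hip caps without overlap (log2 fold change 0.77, SE 0.24, adjusted p = 0.0179), again with the opposite sign under library sizes alone. Trp53inp1, which encodes a cofactor of p53 in death and autophagy, was at 14.4, 42.5 and 17.6 CPM in hip caps and at 58.6, 40.4, 35.4 and 38.8 CPM in metatarsals. The second hip cap control (HC2) lay inside the metatarsal range, and the fitted difference was -0.85 (SE 0.27, adjusted p = 0.0211). It was -0.51 without HC1 and -1.34 without HC2. Gdf15, a secreted member of the TGF-beta superfamily, was at 3.53, 1.11 and 3.14 CPM in hip caps and at 0.858 to 1.53 CPM in metatarsals, with a difference of 0.93 (SE 0.51, adjusted p = 0.179) that passed in the fit without HC2 (1.32, adjusted p = 0.0375).

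These calls depended on a few libraries. Of the 6, 1 remained without HC3 (Trp53inp1), 1 without M504 (Trp53inp1) and 2 without MC1 (Bbc3 and Ccng1), while the log2 fold changes kept their sign. Without HC3 they were -0.66 for Trp53, 1.02 for Bax, -1.58 for Bbc3, 0.52 for Ccng1 and 0.87 for Sesn2, and without M504 they were -0.67, 1.01, -1.59, 0.51 and 0.85. Without MC1, Trp53 was at -0.63, Bax at 0.55, Trp53inp1 at -0.57 and Sesn2 at 0.64. The Bax call was also lost without HC1 (0.60).

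The same tissue comparison under pressure gave fewer calls among these genes. At 5 MPa Gdf15, Ccng1 and Sesn2 were higher in hip caps and Bbc3 was lower, so that 4 of 9 passed, where 37.9% of all genes did (18.8% higher and 19.1% lower). At 50 MPa Gdf15, Ccng1 and Mdm2 were higher and none was lower in edgeR, so that 3 of 9 passed, where 19.7% of all genes did (10.1% higher and 9.58% lower). DESeq2 also called Bbc3 lower there. The members' medians were 0.16 at 5 MPa and 0.43 at 50 MPa, beside -0.079 and -0.0094 over all genes. The tissues did not overlap for 4 of the 9 genes at 5 MPa, against 40.8% of all genes, and for 5 of 9 at 50 MPa, against 39.9%. Ccng1 was thus called in hip caps at each of the 3 pressures, by 0.64, 0.58 and 0.68 on the log2 scale, although with library sizes alone the 3 values were -0.29, -0.035 and -0.30.

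Gdf15 differed most at 5 MPa. Hip caps were at 3.87, 3.30, 6.24 and 3.17 CPM and metatarsals at 1.08, 1.19, 1.06 and 1.02 CPM, a 3.80-fold higher level (log2 fold change 1.93, SE 0.31, adjusted p = 4.7e-05). At 50 MPa hip caps were at 6.64, 4.51 and 5.57 CPM and metatarsals at 1.65, 1.02, 0.961 and 1.37 CPM. No libraries overlapped at either pressure, and the difference at 50 MPa was 1.80 (SE 0.52, adjusted p = 0.0165). Without M504 it was 1.01 and did not pass.

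Bbc3 was lower in hip caps at 5 MPa, with 2.68, 2.74, 5.21 and 2.49 CPM against 7.68, 10.7, 9.71 and 6.33 CPM in metatarsals (log2 fold change -1.38, SE 0.28, adjusted p = 0.000445). At 50 MPa the hip caps were at 2.95, 4.09 and 8.05 CPM and the metatarsals at 8.46, 5.97, 6.07 and 11.05 CPM. These overlapped through H504, and the difference of -1.14 (SE 0.41, adjusted p = 0.0559) did not pass, whereas it was -1.52 without H504 (adjusted p = 0.00828) and -0.65 without M504 (adjusted p = 0.732). The Bbc3 difference at 50 MPa passed in 3 of 11 alternatives, DESeq2 among them, and in 6 of 22 fits with a library left out. Mdm2 at 50 MPa was at 61.4, 70.0 and 62.8 CPM in hip caps and at 50.6, 51.5, 50.8 and 37.7 CPM in metatarsals, 1.55-fold higher (log2 fold change 0.63, SE 0.19, adjusted p = 0.0184) except under library sizes alone, where it was negative. The call was lost without H503 (0.52) and without M504, the lowest metatarsal library, where the difference was 0.14.

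For Ccng1 the values at 5 MPa were 78.8, 84.4, 76.3 and 80.0 CPM in hip caps against 47.4, 54.1, 63.2 and 49.6 CPM in metatarsals (SE of the difference 0.11, adjusted p = 0.0002). At 50 MPa they were 95.03, 91.1 and 104 CPM against 57.1, 54.2, 49.9 and 57.1 CPM (SE 0.17, adjusted p = 0.00499). Neither set overlapped, and the difference at 50 MPa was 0.38 and not called without M504. Sesn2 at 5 MPa was at 18.0 to 21.0 CPM in hip caps and 12.1 to 17.1 CPM in metatarsals, a difference of 0.53 (SE 0.16, adjusted p = 0.0109) that was -0.10 with library sizes alone. At 50 MPa its difference was 0.43 (adjusted p = 0.245).

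**Figure D2:**
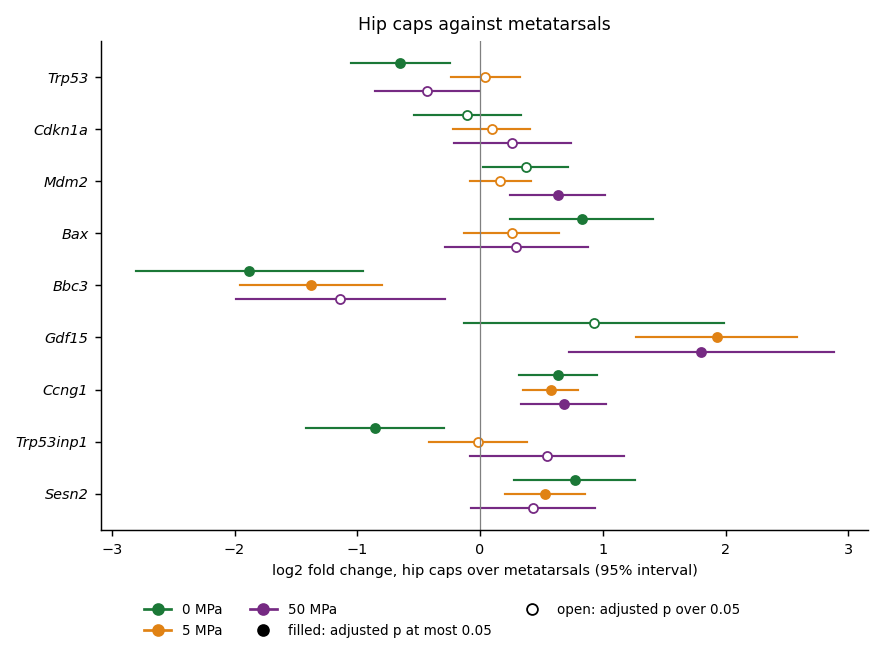
Log2 fold change of hip caps over metatarsals (x axis; bars are 95% intervals) for the 9 genes tested, at 0, 5 and 50 MPa (colours; filled where the adjusted p is at most 0.05). Bbc3 lies to the left of 0 and Ccng1 to the right at each pressure, while Trp53inp1 runs from -0.85 at 0 MPa to 0.55 at 50 MPa; without TMM factors (library sizes alone) the called values of Bax, Ccng1, Sesn2 and Mdm2 have the opposite sign.

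Cdkn2a, whose single locus encodes the CDK4/6 inhibitor p16INK4a and, from another reading frame, ARF, an inhibitor of MDM2, was at the limit of detection. It had 3, 4 and 4 counts in hip cap controls, 7, 2, 26 and 4 at 5 MPa and 4, 4 and 2 at 50 MPa, and 0 to 2 counts in each metatarsal library. In CPM the hip caps were above the metatarsals at each pressure without overlap (0.611 against 0.0410 CPM on average in controls, 0.523 against 0.0112 at 5 MPa and 0.439 against 0.0481 at 50 MPa). An exact two-sided permutation test gave p = 0.0286 at each pressure, which is the smallest p that 3 or 4 against 4 libraries allow, and 0.0286 after adjustment over the 3 tests. DESeq2 called Cdkn2a higher in hip caps at 5 MPa, where the 26 counts were those of H53, and not in controls or at 50 MPa. The metatarsal counts lie under 3 counts, so no fold is given, and gene counts do not separate the 2 products.

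The second question was whether pressure changed these genes within hip caps. At 50 MPa Trp53inp1 was higher than in controls and was the only 1 of the 9 genes that passed, where 5.18% of all genes did and 3.32% were higher. That share rested on few libraries, as edgeR called 1 gene of 22039 without HC3 and 0 of 18001 with hip caps fitted alone (1934 were at an unadjusted p under 0.05), while DESeq2 called 2477. The hip caps at 50 MPa were at 34.9, 40.3 and 48.9 CPM. The controls were at 14.4, 42.5 and 17.6 CPM, so that 2 controls lay below all pressurised samples and HC2 lay among them. The fitted log2 fold change was 1.33 (SE 0.30, adjusted p = 0.0205), 2.51-fold. It depends on the terms for run and library type, being 0.72 (adjusted p = 0.137) without them and 0.73 (adjusted p = 0.55) among the hip caps of the first run alone. The call was also lost without HC3 (1.66), H503 (1.28), MC1 (1.17) or M504 (1.17).

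**Figure D3:**
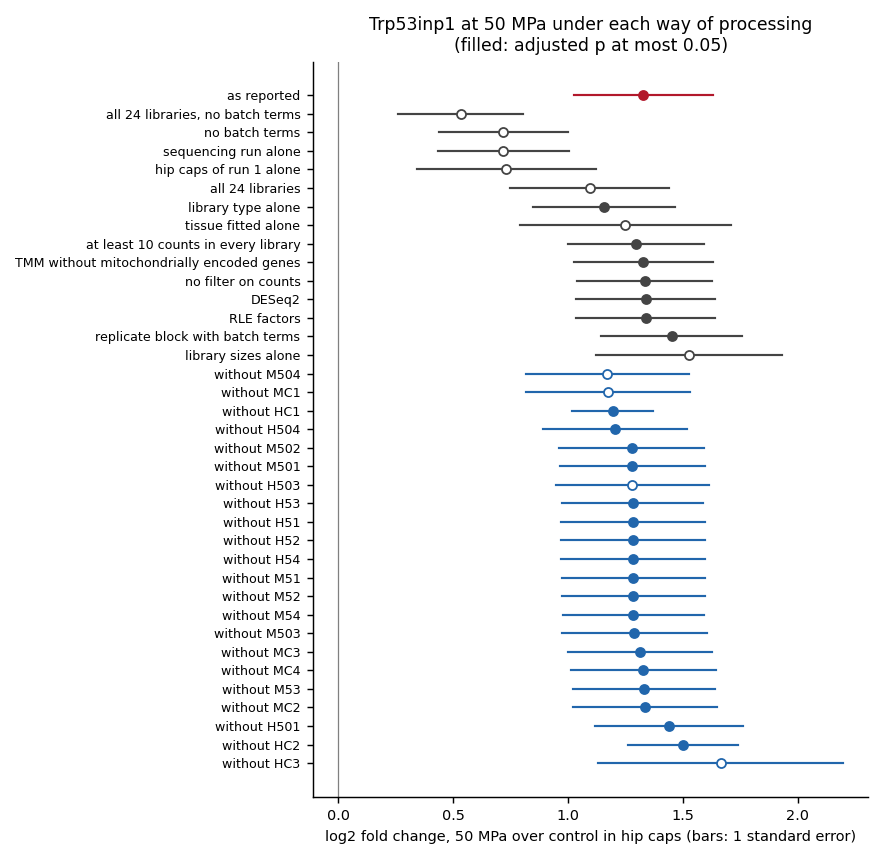
Log2 fold change of Trp53inp1 in hip caps at 50 MPa over control (x axis; bars are 1 standard error) as reported (red), under other processing choices (grey) and with each library left out (blue), filled where the adjusted p is at most 0.05. Every value is above 0, from 0.53 with all 24 libraries and no batch terms to 1.66 without HC3, and the call is lost in 7 of the 14 choices and in 4 of the 22 fits with a library left out.

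For the other 8 genes no difference passed at 50 MPa. Gdf15, at 6.64, 4.51 and 5.57 CPM, lay above all 3 controls (3.53, 1.11 and 3.14 CPM), a difference of 0.99 (95% interval 0.0043 to 1.97, adjusted p = 0.219), where 15.8% of all genes had groups that did not overlap. Sesn2, at 18.7, 15.2 and 25.7 CPM against 22.6, 19.6 and 29.1 CPM, differed by -0.64 (SE 0.24, adjusted p = 0.114), which passed in the fit without H504 (-0.83, adjusted p = 0.0304). Cdkn1a differed by 0.076 (95% interval -0.39 to 0.54), Mdm2 by 0.17 (-0.19 to 0.54), Ccng1 by 0.22 (-0.11 to 0.55) and Trp53 by 0.095 (-0.34 to 0.53). The death effectors had wider intervals, -0.46 for Bax (-1.05 to 0.12) and 0.41 for Bbc3 (-0.56 to 1.37). The members' median was 0.17, beside 0.019 over all genes. Summed osteoclast markers moved with the same groups, at 329 to 532 CPM in controls and 552 to 1726 CPM at 50 MPa, and summed cartilage markers were at 32940 to 37470 CPM at 50 MPa, below the controls. Summed muscle markers were at 33.9 to 52.1 CPM at 50 MPa against 8.97 to 16.2 CPM in controls, again without overlap, with Myog at 0 in both. The part of these markers in the differences was not tested.

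At 5 MPa 0 of the 9 genes passed in hip caps, where 0.0188% of all genes did (4 genes). At an unadjusted p under 0.05 there were 2 of the 9, Trp53 and Trp53inp1, and 14.8% of all genes. Trp53 was at 29.7, 27.2, 44.5 and 27.0 CPM, above all 3 controls, with a difference of 0.49 (SE 0.22, unadjusted p = 0.0396, adjusted p = 0.312), and 16.2% of all genes had groups that did not overlap. In the fits without the run term, Trp53 passed, at 0.69 with library type alone (adjusted p = 0.0248) and 0.61 with neither term (adjusted p = 0.0227), and these fits called 5.46% and 9.52% of all genes. Trp53inp1 was at 39.6, 39.9, 35.6 and 39.3 CPM, with a difference of 0.83 (SE 0.31, adjusted p = 0.231) that was 1.26 without HC2 (adjusted p = 0.00943), where 5.61% of all genes were called. DESeq2 called 579 genes in this comparison and 0 of the 9. The remaining 7 lay between -0.56 (Bax) and 1.03 (Gdf15, or -0.56 with all 24 libraries). Summed osteoclast markers at 5 MPa were 546 to 1708 CPM, above the 329 to 532 CPM of the controls, and their part was not tested. The comparisons at 5 and 50 MPa share their 3 controls.

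In metatarsals 0 of the 9 genes passed at either pressure, and edgeR called 0% of all genes at 5 MPa and at 50 MPa (689 and 828 genes, or 3.24% and 3.89%, were at an unadjusted p under 0.05, and 0 of the 9, while DESeq2 called 16 and 12 genes over the whole table). At 5 MPa the log2 fold changes lay between -0.20 (Trp53) and 0.19 (Ccng1), with 95% intervals within -0.70 and 0.77. At 50 MPa they lay between -0.34 (Bbc3) and 0.17 (Ccng1), with intervals within -0.94 and 0.86. Trp53inp1, called in hip caps at 50 MPa, was at 38.7, 39.1, 36.4 and 26.1 CPM in metatarsals at 50 MPa and differed from control by -0.071 (95% interval -0.50 to 0.36). All adjusted p-values of the 9 genes were 1. The 2 comparisons share the 4 control libraries.

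**Figure D4:**
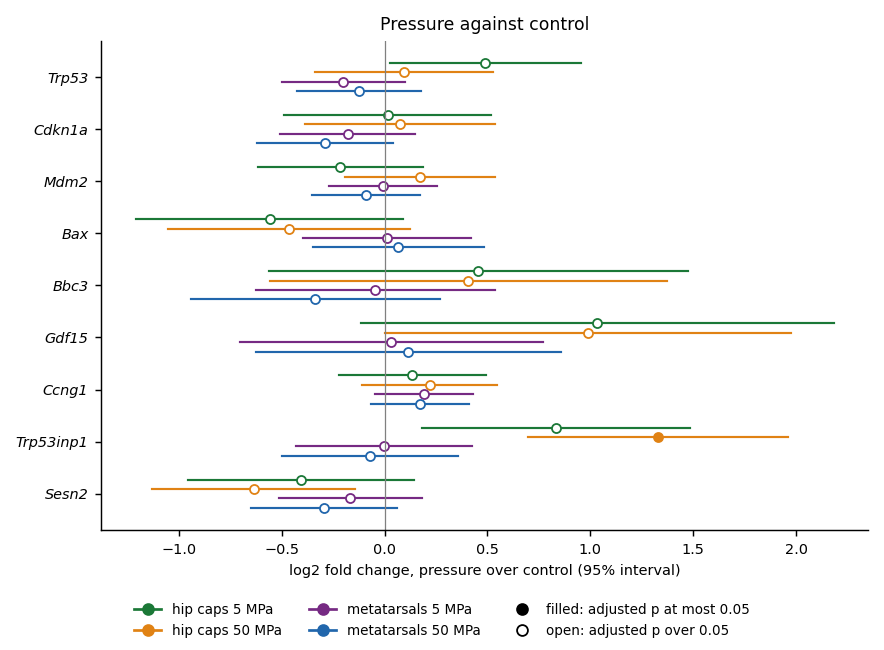
Log2 fold change of each pressure over control (x axis; bars are 95% intervals) for the 9 genes tested, in hip caps and metatarsals at 5 and 50 MPa (colours; filled where the adjusted p is at most 0.05). Only Trp53inp1 in hip caps at 50 MPa is filled, at 1.33, and the metatarsal values all lie between -0.34 and 0.19.

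Whether the response differed between the tissues was tested as an interaction. None of the 9 genes passed at 5 MPa (0.0188% of all genes did, and 2 of the 9, Trp53 and Trp53inp1, were at an unadjusted p under 0.05, as were 11.2% of all genes) or at 50 MPa (0.132%, with 1 of the 9, Trp53inp1, and 18.3% of all genes at an unadjusted p under 0.05). The response of Trp53inp1 at 50 MPa exceeded that in metatarsals by 1.40 on the log2 scale (SE 0.33, adjusted p = 0.0576). It passed with DESeq2 (1.42, adjusted p = 0.00177), and in edgeR without HC1 (1.18), HC2 (1.69), H53 (1.36) or H504 (1.27). These fits called more genes over the whole table than the 28 of the edgeR fit of 22 libraries, 1397 with DESeq2 and 152, 1575, 517 and 627 without HC1, HC2, H53 and H504. At 5 MPa the Trp53inp1 interaction was 0.84 (adjusted p = 0.364) and passed without HC2 (1.32, adjusted p = 0.0187), where 577 genes were called, and that of Trp53 was 0.69 (SE 0.24, adjusted p = 0.325).

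Further genes of the pathway were read from lists of known p53 targets, p53 regulators and death genes. Of 32 other p53 targets, 8 were higher and 9 lower in hip caps when the controls were compared, with a median of -0.052, beside 14.1% and 15.9% of all genes and a median of -0.082. The highest were Ddit4l at 2.67, an inhibitor of mTORC1 signalling, Dcxr at 1.88 and Gadd45a, a growth arrest and DNA damage gene, at 1.63. The lowest were Pmaip1, which encodes the BH3-only protein NOXA, at -2.31, Psrc1 at -1.73 and the death receptor gene Eda2r at -1.67. Gadd45a averaged 14.1 ± 3.02 CPM in hip cap controls (SD, n = 3) and 3.58 ± 0.121 CPM in metatarsal controls (n = 4). At 5 MPa 8 were higher and 8 lower (18.8% and 19.1% of all genes), led by Ddit4l (2.78), Gadd45a (2.15) and Tigar (1.47) and by Eda2r (-1.85), Pmaip1 (-1.41) and Psrc1 (-1.14), and at 50 MPa 6 were higher (2 of them, Ak1 and Polk, negative with library sizes alone) and 4 lower (10.1% and 9.58% of all genes), led by Ddit4l (2.95), Gadd45a (2.20) and Plk2 (1.26) and by Psrc1 (-1.62), Eda2r (-1.19) and Apaf1 (-0.996). The 17 calls in controls became 9 without MC1, and the 10 at 50 MPa became 2 without M504.

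The BCL2 family, which decides on the opening of the mitochondrial membrane, differed between the controls in 5 of 12 genes, where 29.9% of all genes did, and in 2 of 12 without MC1. The protective Bcl2l1 (BCL-XL) was higher in hip caps by 1.67, and Bcl2 by 0.82, or -0.096 with library sizes alone. The BH3-only killer Bcl2l11 (BIM) was lower by -2.54, Bmf by -0.80 and the protective Mcl1 by -0.82. Bcl2l11 averaged 6.50 ± 2.34 CPM in hip cap controls and 41.8 ± 2.54 CPM in metatarsal controls. At 5 MPa, where 37.9% of all genes were called, Bcl2l1 (1.43), Bcl2 (0.89), Bid (1.10) and Bok (2.00) were higher and Bcl2l11 (-1.79) and Bmf (-1.26) lower, and at 50 MPa, where 19.7% were, Bcl2l1 (1.18) and Bcl2 (0.89, or -0.080 with library sizes alone) were higher and Bcl2l11 (-2.14) and Bmf (-1.37) lower.

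Of 24 caspases and other death genes, 3 differed between the controls (12.5%, beside 29.9% of all genes, and 0 without MC1, 5 without HC2 or H504 and 6 without H53), among them Aifm1, which was higher (0.60, or -0.29 with library sizes alone), and Gsdmd, which was lower (-1.64). At 5 MPa 4 were higher (Casp12 0.60, Tradd 0.60 and Casp8 0.45 leading, all 4 negative with library sizes alone) and 2 lower (Casp6 -0.63 among them), together 25% of the list beside 37.9% of all genes, and without M53 the number called was 3. At 50 MPa 0 were called in edgeR or DESeq2, 3 were at an unadjusted p under 0.05, and 3 were called in edgeR without H53. Of 17 p53 regulators tested, Hipk2, a kinase of p53, was higher in hip caps at all 3 pressures (1.51, 1.68 and 1.37). It was the only regulator called in edgeR at 5 and 50 MPa, 5.88% of the list beside 37.9% and 19.7% of all genes. At 5 MPa the number called was 5 without HC1, HC2 or H504, and DESeq2 called 5 lower. In controls 4 were lower (the number called, 5 with Hipk2, was 1 without MC1 and 2 without HC1), among them the p53 inhibitor Mdm4 (-0.77), the ubiquitin ligase Cop1 (-0.73) and the kinase Atr (-0.85). These 5 are 29.4% of the list, beside 29.9% of all genes. Of the 5 other CDK inhibitors Cdkn1c (p57) was lower in hip caps at all 3 pressures (-4.45, -4.62 and -4.02), at 26.6 ± 4.01 CPM in hip cap controls and 559 ± 44.3 CPM in metatarsal controls, and Cdkn2c (p18) was higher (2.83, 1.91 and 1.67), though not called at 50 MPa without HC3. At 5 MPa Cdkn2b was also higher (1.08). The CDK inhibitors called were 40%, 60% and 40% of their list at 0, 5 and 50 MPa, beside 29.9%, 37.9% and 19.7% of all genes.

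ATF4 target genes, which include known partners of Sesn2 and Gdf15 in the response to amino acid shortage, were counted beside them. In controls 4 of 12 were higher in hip caps, beside 14.1% of all genes, led by Chac1 (2.15), Atf5 (1.87) and Trib3 (1.85), and 1 was lower (Ddit4, -1.01). These 5 calls became 3 without HC3, MC1 or M504 and 8 without H504. At 5 MPa, beside 18.8% and 19.1% of all genes, 6 were higher (Shmt2 not with library sizes alone), led by Atf5 (1.95), Chac1 (1.84) and Trib3 (0.99), and 2 lower (Ddit4 and Atf3, -1.05 and -0.76), and at 50 MPa, beside 10.1% of all genes, 5 were higher (1 call without M504), led by Trib3 (1.94), Chac1 (1.92) and Atf5 (1.86). Of 10 proliferation markers 0 were called in controls or at 50 MPa by edgeR or DESeq2 (0 at an unadjusted p under 0.05), and 7 were higher in hip caps at 5 MPa, beside 18.8% of all genes, or 2 without H53 and 3 without M51. They were led by Aurkb (1.31), Mki67 (1.27) and Top2a (1.22). At 5 MPa these markers ran from 164 to 548 CPM in sum in hip caps, highest in H53, and from 122 to 172 CPM in metatarsals.

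Under pressure edgeR called few of these genes. In hip caps at 50 MPa 1 gene of each of 4 lists rose, namely Polk, a translesion DNA polymerase (0.86, adjusted p = 0.0267), Cop1 (0.76, adjusted p = 0.0433), Xiap, an inhibitor of caspases (0.82, adjusted p = 0.0436), and the ATF4 target Asns (1.03, adjusted p = 0.0415), all in edgeR. These are 3.12%, 5.88%, 4.17% and 8.33% of their lists, beside 5.18% of all genes. DESeq2 called these 4 too, and in all 3 p53 targets, 2 regulators, 2 death genes and 2 ATF4 genes higher. It called 1 p53 target, 1 regulator and 1 death gene lower. Over all 7 lists DESeq2 called 13 of 112 genes, and it also called more genes over the whole table than edgeR. In edgeR 31 of the 112 were at an unadjusted p under 0.05, beside 22.6% of all genes. In edgeR none of the 4 genes was called without HC3, and none of the 4 lists held a called gene without H503, MC1 or M504. Over all 7 lists the number called, 4, became 1 without H51, H52, MC3, MC4, M51, M52, M54, M501, M502 or M503. It was 2 without MC2 or M53, 3 without H501, 5 without HC1, 6 without H504 and 10 without HC2 or H53. Of the BCL2 family, the other CDK inhibitors and the proliferation markers 0 were called there in edgeR, with 3, 1 and 1 at an unadjusted p under 0.05, and 0, 0 and 1 with DESeq2 (Pcna, named after its value was seen). Of the 112 genes of these 7 lists that were tested, edgeR called 0 in hip caps at 5 MPa and in metatarsals at 5 and 50 MPa. In hip caps at 5 MPa the number was 5 without HC2 and 1 without H54. At an unadjusted p under 0.05 there were 18, 6 and 9 in these 3 comparisons, beside 14.8%, 3.24% and 3.89% of all genes. DESeq2 called 1, 1 and 0. The cell markers called in hip caps at 50 MPa were Sox9 (-1.23) and Comp (-1.35) of cartilage, Sp7 (-1.07) of osteoblasts and Ttn (1.95) of muscle. The osteoclast, macrophage, neutrophil and erythroid lists held 0 genes called by edgeR in that comparison, with 5 of 7, 3 of 7, 2 of 6 and 0 of 3 at an unadjusted p under 0.05. DESeq2 called 2 osteoclast markers (Ctsk and Mmp9) and 1 macrophage marker (Cd68) higher there, named after their values were seen.

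The genes with the nearest pattern over the 22 libraries, by root mean square difference of centred log2 CPM among 9044 genes that average at least 10 CPM, were named for each of the 8 genes called in some comparison. They were Ppp1cb, Tmem65 and Csnk2a1 for Trp53inp1 (0.154, 0.163 and 0.168, where the SD of Trp53inp1 itself was 0.433). For Bbc3 they were Grina, Nectin1 and Vegfb (0.3 to 0.311, own SD 0.770) and for Gdf15 Ass1, Rnf19b and Capg (0.312 to 0.339, own SD 0.826). For Ccng1 they were Sdha, Fgfr1op2 and Anxa5 (0.133 to 0.149, own SD 0.396), for Bax Fkbp8, Nelfcd and Abcf2 (0.141 to 0.152, own SD 0.374) and for Sesn2 Pofut2, Mogs and Gatad2a (0.148 to 0.156, own SD 0.382). Kctd17, Elk3 and Camk2g were nearest to Trp53 (0.126 to 0.133, own SD 0.294), and Fam13b and Hivep2 were among the 3 nearest to Mdm2 (0.131 and 0.132, own SD 0.225).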

How the data were processed

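Total RNA of 24 explant samples, partly degraded by the study's own account, was depleted of ribosomal RNA and sequenced. The authors trimmed reads (Trim Galore 0.6.5), estimated transcript abundance with kallisto and took gene sums with tximport, and the deposited values are these estimated counts, not normalized (build GRCm39 in the submitters' processing notes). The kallisto version is not given in the sources used here. Pressures are labelled mPa and were read as MPa, as in the paper.

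After rounding, low genes were removed (filterByExpr, by group), TMM factors were computed and the counts were fitted in edgeR 4.0.16 (R 4.3.3, limma 3.58.1; robust quasi-likelihood) with terms for group, sequencing run and library type over 22 libraries. Tests were two-sided, and p-values were adjusted over 21283 genes in each of 9 comparisons by the Benjamini-Hochberg method, with calls at 0.05. Each standard error is the size of the log2 fold change over the root of F. The fit was also run on simulated data, but the outcome is not reported here. No conclusion is drawn from it on whether the fit separates pressure from sequencing run and library type. Library type came from the labels, which call 6 libraries unstranded although the methods give strand-specific libraries, and run from the study's clustering figure, whose split of the libraries differs from that in its methods, so it is uncertain. For hip caps at 5 MPa, run and pressure are separated only through metatarsals. Alternatives included DESeq2 1.42.0. Depth sets the precision of low genes, and p-values measure the spread between these samples.

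GENCODE M21 (GRCm38) served for names (48845 genes), lengths and shared 31-base words, and RefSeq for promoters. The members and lists were chosen with earlier results of these data known. Named were all members, up to 3 called genes each way from every other list with all called BCL2 genes, and the 3 genes nearest to each called member, and some genes that this rule names are not reported here. Of the marker lists, all members enter sums and the genes called are named for hip caps at 50 MPa.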

Additional observations from a re-analysis of the deposited data

Results flagged for a closer look

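In 9 of 40 sets of 4 libraries, 1 library stood apart from the other 3 by Dixon's criterion. For independent, normally distributed values about 1 set in 20 would be flagged. These sets share libraries and 1 holds a single count, so the 9 flagged sets cannot be judged against that rate. H53 (hip caps, 5 MPa) accounted for 3 of them, with Trp53 at 44.5 CPM (others 27.0 to 29.7), Bbc3 at 5.21 CPM (others 2.49 to 2.74) and Trp53inp1 at 35.6 CPM (others 39.3 to 39.9). H53 also held the highest sum of neutrophil markers (187 CPM, against 9.03 to 41.6 CPM in the other 3), of macrophage markers (684 against 110 to 195 CPM) and of proliferation markers (548 against 164 to 273 CPM) among hip caps at 5 MPa. Its osteoblast (7122 against 2064 to 2988 CPM) and osteoclast sums (1708 against 546 to 1124 CPM) were also the highest. Its cartilage sum was the lowest (22210 against 36350 to 53070 CPM). The part of these markers in the levels was not tested. Without H53 the difference of Trp53 at 5 MPa in hip caps was 0.36 in place of 0.49, and that of Trp53inp1 was 0.94 in place of 0.83.

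In metatarsals, Mdm2 stood apart in M52 at 5 MPa (62.0 CPM, others 47.9 to 50.2) and in M504 at 50 MPa (37.7 CPM, others 50.6 to 51.5), the latter an unstranded library of the first run. At 5 MPa Sesn2 was high in M52 (17.1 CPM, others 12.1 to 12.8), Bax in M53 (22.02 CPM, others 18.5 to 19.0) and Cdkn2a in M51, where a single count gave 0.0449 CPM and the others had 0. In controls Ccng1 was high in MC1 (59.3 CPM, others 45.2 to 47.3), the only metatarsal control of the first run.

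H502 (hip caps, 50 MPa), which was not fitted, held 3 genes above all fitted hip cap controls, Bbc3 at 8.81 CPM (controls 1.63 to 3.14), Gdf15 at 5.50 CPM (1.11 to 3.53) and Cdkn2a at 2.20 CPM (0.381 to 0.815, 14 counts). In the same library Bax at 9.12 CPM, Ccng1 at 38.5 CPM and Cdkn1a at 35.1 CPM lay below all fitted hip caps.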

How the results depend on the processing

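Scaling set the sign of 7 of the 13 tissue differences called. With library sizes alone the median of all genes moved to -0.97 in controls, -0.70 at 5 MPa and -0.90 at 50 MPa, and the log2 fold changes became -0.058 for Bax, -0.29 for Ccng1 and -0.12 for Sesn2 in controls, -0.035 for Ccng1 and -0.10 for Sesn2 at 5 MPa, and -0.31 for Mdm2 and -0.30 for Ccng1 at 50 MPa. Relative to those medians they were 0.91, 0.68, 0.85, 0.66, 0.60, 0.60 and 0.61. The number of the 9 genes called at 5 MPa between tissues (4) became 2 with at least 10 counts in every library (Bbc3 and Gdf15, with fewer counts, are not tested under that filter) and 1 with all 24 libraries, with or without batch terms (the fit without them was chosen after seeing the data), and at 50 MPa (3) it became 1 with all 24 libraries. For hip caps at 5 MPa (0) it became 1 without batch terms or with library type alone. For hip caps at 50 MPa (1) it became 0 with library sizes alone, all 24 libraries, all 24 without batch terms, no batch terms, run alone, hip caps fitted alone and hip caps of the first run alone, and 2 with at least 10 counts in every library. The interaction at 50 MPa (0) became 1 with at least 10 counts in every library, with DESeq2 and with the replicate number as a block. After removal of group means, libraries of the same replicate number had correlations of -0.29 to 0.21 (50 pairs, 12 over 0.1). Libraries of unlike number were not compared, so whether the numbers pair the libraries was not tested. With the replicate block the counts were otherwise 6, 4, 3, 0 and 1 for the 3 tissue comparisons and for hip caps at 5 and 50 MPa. Leaving out 1 library gave 1 to 7 calls between tissues in controls, 4 to 5 at 5 MPa and 0 to 5 at 50 MPa (0 without M504, 5 without H53), 0 to 1 and 0 to 2 in hip caps at 5 and 50 MPa, 0 in metatarsals and 0 to 1 in each interaction. Between tissues at 50 MPa, 22 of the 112 genes of the 7 further lists were called, 8 without M504 and 26 without H53. The other 6 called tissue differences and that of Trp53inp1 in hip caps at 50 MPa kept their direction under each alternative that gave a value. Of the differences not called, 11 of 14 between tissues, 23 of 35 under pressure and 7 of 18 interactions had the opposite sign in at least 1 alternative or left-out library (9, 11 and 4 with library sizes alone). Low counts limit Bbc3, Gdf15 and Cdkn2a, whose smallest library counts were 6, 7 and 0, and the causes of these changes were not tested.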

Other observations

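HC4 and H502, the hip cap libraries that the study set aside, differed between themselves in most of these genes. HC4 held Gdf15 at 11.6 CPM, Trp53 at 41.5 CPM and Cdkn1a at 90.3 CPM, each above the 3 fitted controls, and 0 counts of Bbc3 in 21130510. HC4 also had less cartilage marker RNA than any fitted hip cap (9529 CPM) and more osteoclast marker RNA (4796 CPM, against 329 to 532 CPM in the fitted controls), while H502 was at 14380 and 257 CPM. The part of these markers in its values was not tested. With all 24 libraries the controls differed in Gdf15 by 2.23, higher in hip caps (edgeR, adjusted p = 0.00236), beside 0.93 (adjusted p = 0.179) over the 22.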
